A study of Mus musculus with 6 samples.

Results

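The genes examined, in splenic B cells stimulated through TLR7, concerned the making, breakdown and reading of cyclic AMP and the breakdown of cyclic GMP. They were taken by their symbols: adenylyl cyclases (Adcy followed by a digit), phosphodiesterases (Pde followed by a digit), subunits of protein kinase A, PKA (Prkar, Prkaca and Prkacb), and A-kinase anchoring proteins, AKAPs (Akap followed by a digit). Of the 23420 gene symbols in the files 58 met this rule. Enzymes that make cyclic GMP and kinases that it activates were outside the rule. A gene was tested when it reached a log2 CPM of -1 or more, that is 0.5 CPM (read counts scaled to a common library total), in at least 3 of the 6 libraries, and 37 of the 58 genes did so among 11844 tested genes in all. Of these 37 genes 36 reached that minimum in all 6 libraries; Adcy9 did not.

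RNA-seq was performed on bead-purified splenic B cells of MRL/lpr mice (MRL.Faslpr), a strain with a mutant Fas gene that develops a lupus-like disease. All mice lacked TLR9, carried wild-type TLR7, were 5 to 7 weeks old and, per the study's methods, male. B cells of 3 mice were left unstimulated or stimulated for 4 hours with CL097, a small-molecule TLR7 agonist, at 5 µg/ml. Each condition had 3 libraries, numbered 1 to 3. No library of TLR9-sufficient cells or of another strain was analysed here, so the comparison covers the response to CL097 on this background only.

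Cyclic AMP is made by adenylyl cyclases when a receptor engages a stimulatory G protein, and it is hydrolysed by phosphodiesterases. It frees the catalytic subunits of PKA from the regulatory subunits, and AKAPs hold the kinase and often phosphodiesterases at particular places in the cell. In lymphocytes the pathway is best known for restraining antigen receptor signaling, and PKA also phosphorylates the transcription factor CREB.

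Each library had 10906 to 10997 genes with a level of at least 1 CPM, and the sequencing depth is unknown because only log2 CPM were used. All 10 B cell markers checked, among them Cd79a and Ms4a1, passed the filter. Of 9 T cell markers 5 passed, summing to 47.3 to 92.4 CPM per library, and Cd3d, Cd3e, Cd3g and Zap70 did not. The summed level of the B cell markers ranged from 6847 to 7796 CPM in unstimulated and from 3141 to 3759 CPM in CL097 libraries. Summed platelet and megakaryocyte markers went from 88.8 to 119 CPM unstimulated to 22.8 to 25.9 CPM with CL097. Summed plasma cell markers went from 937 to 1026 CPM to 2093 to 2305 CPM. The median log2 difference of the listed genes was -0.09 for platelet and megakaryocyte and -0.33 for plasma cell markers. Both sums thus rest on part of their list, and the part of these shifts in the results was not tested. Libraries numbered 1 stood apart from the others in both conditions: summed erythroid markers reached 27.7 CPM in unstimulated library 1 and 48.3 CPM in CL097 library 1, against 805 to 2038 CPM in the other 4 libraries. In bulk RNA, fewer cells of a type and less RNA per cell cannot be told apart, and because the values were quantile normalized each change is a change against the rest of the library. Nothing in the labels ties a number to a mouse, so p-values measure the spread between these libraries, which may be technical.

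After 4 hours with CL097, transcripts of the cAMP machinery were more often lower than higher. In the paired limma fit 4 of 37 genes (10.8%) were higher and 16 (43.2%) were lower (adjusted p under 0.05, with a log2 fold change beyond 0.5 in size), and 17 were not called. Over all 11844 tested genes 51.7% were called in either direction, 25.9% higher and 25.8% lower. The share of cyclic nucleotide genes called in either direction, 54.1%, was thus near that of all tested genes, and the split between directions was not. The median log2 fold change of the 37 genes was -0.29, against 0.002 for all tested genes. The unstimulated and CL097 values did not overlap for 24 of the 37 genes, and for 65.8% of all tested genes. The counts by role below stand against the shares of all tested genes called higher and lower.

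Of the 20 called genes, 14 had an absolute log2 fold change of 1 or more, 11 of them lower and 3 higher. Of the 21 genes with a mean level at or above the median of all tested genes (26.2 CPM), 11 were lower and 2 higher, and of the 16 genes below it 5 were lower and 2 higher. Of all tested genes at or above that median 25.0% were lower and 26.2% higher. Below it 26.6% of all tested genes were lower, so the 31.2% of scarce cyclic nucleotide genes that were lower was near that share. Higher were 12.5% of these scarce genes, against 25.5% of all tested genes below the median. These shares were not compared with a test.

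**Figure D1:**
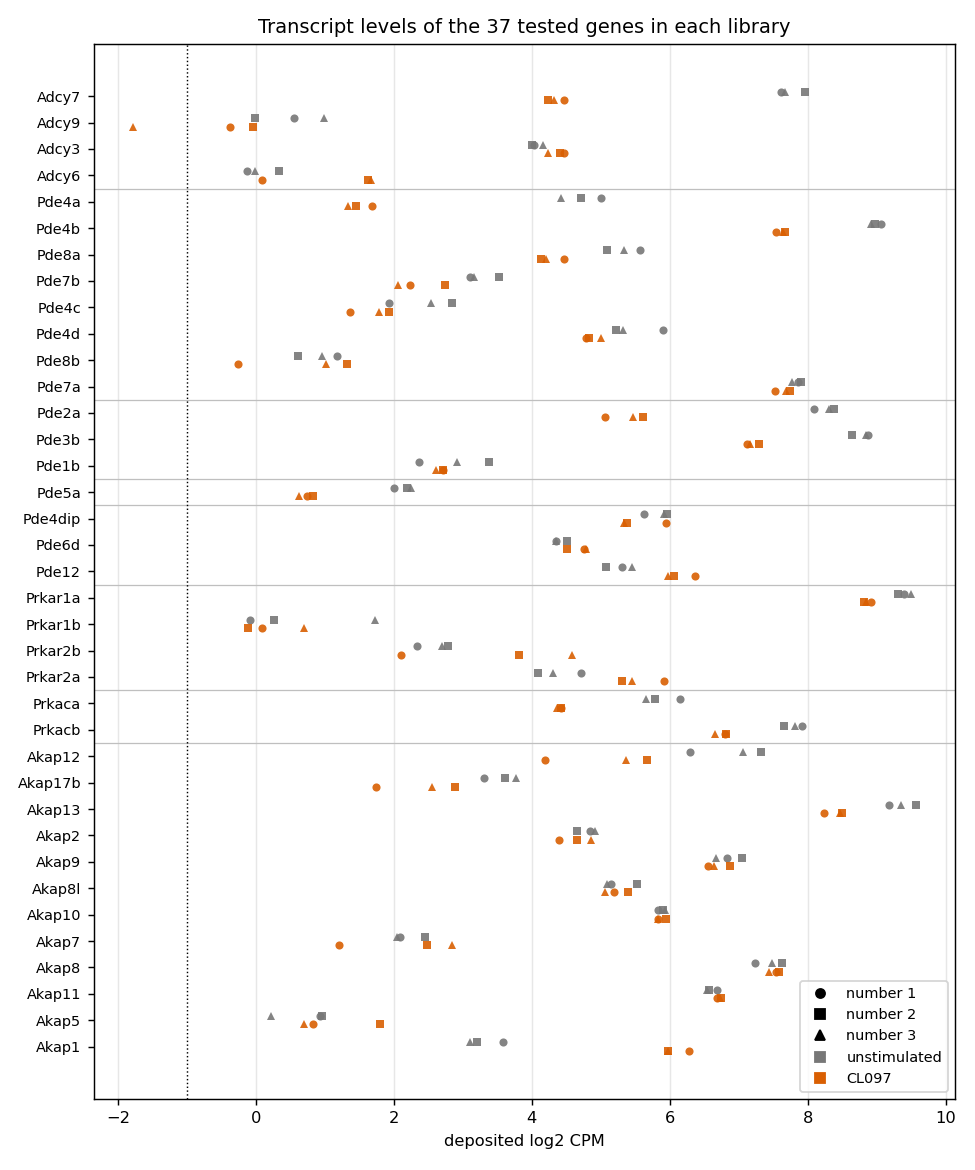
Deposited log2 CPM (horizontal axis) of the 37 tested genes in each of the 6 libraries, with unstimulated libraries in grey, CL097 libraries in orange and a marker shape for each library number; the dotted line is the minimum of -1 and the horizontal lines separate the roles. Adcy7, Pde4a, Pde2a and Akap1 show the widest gaps between conditions, while for Adcy6, Prkar2b and Akap7 the CL097 libraries differ widely among themselves.

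Of 10 adenylyl cyclase genes 4 were tested: 1 fell, 1 rose and 2 were not called. These shares, 25.0% in each direction, were near those of all tested genes (25.8% lower and 25.9% higher). Adcy7 (chromosome 8, 88272403 to 88329962, plus strand, GRCm38), a membrane cyclase prominent in blood cells, was read at 196, 248 and 203 CPM in unstimulated libraries 1 to 3 and at 22.2, 18.7 and 20.0 CPM in CL097 libraries 1 to 3. All CL097 values lay far below all unstimulated values. Adcy7 fell 10.6-fold, the largest change among the 37 genes (log2 fold change -3.41, SE 0.12, adjusted p = 1.25e-06).

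Adcy6 (chromosome 15, 98589973 to 98610076, minus strand), a cyclase inhibited by calcium, was read at 0.916, 1.26 and 0.988 CPM in unstimulated and 1.06, 3.09 and 3.17 CPM in CL097 libraries. The groups overlapped, since CL097 library 1 stayed within the unstimulated range. Adcy6 was called higher (log2 fold change 1.06, SE 0.36, adjusted p = 0.0339), with a log2 difference of 0.21 in pair 1 against 1.30 and 1.68 in pairs 2 and 3. The call was lost without pair 2 (log2 fold change 0.95, adjusted p = 0.146) and without pair 3 (0.76, adjusted p = 0.195), and in a fit without pairs (adjusted p = 0.0839). Summed erythroid markers were 27.7, 805 and 937 CPM in unstimulated and 48.3, 1170 and 2038 CPM in CL097 libraries. In unstimulated libraries Adcy6 had another order than these markers. Summed B cell, monocyte and macrophage, neutrophil, platelet and plasma cell markers were also lowest in CL097 library 1 among CL097 libraries. The part of any of these markers in the pair differences of Adcy6 was not tested.

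The 2 remaining cyclases were not called. Adcy3, found in cilia of many cells, had 16.8 ± 1.02 CPM unstimulated and 20.7 ± 1.65 CPM after CL097 (SD, n = 3; log2 fold change 0.30, SE 0.12, adjusted p = 0.0611). It overlaps the gene Cenpo on the opposite strand. Adcy9 had 1.48 ± 0.50 and 0.677 ± 0.35 CPM (log2 fold change -1.25, SE 0.55, adjusted p = 0.0791), with pair differences from -0.03 to -2.78. It was called lower without pair 1 (-1.40, adjusted p = 0.0358) and without pair 2 (-1.85, adjusted p = 0.0284).

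Scaled to exon length, so that genes can be compared, the 4 cyclases summed to 35.2 ± 4.06 CPM per kilobase of exon in unstimulated and 6.82 ± 0.31 in CL097 libraries (SD, n = 3). Adcy7 made up 91.0 ± 1.43% of this sum without and 44.2 ± 2.98% with CL097. Adcy3 went from 7.72 ± 1.13% to 48.6 ± 1.92% of the sum while its own level per kilobase was 2.69 ± 0.16 and 3.31 ± 0.26. After CL097 the levels of Adcy3 and Adcy7 (3.01 ± 0.26 CPM per kilobase) differed by about as much as their spread.

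Phosphodiesterases of cyclic nucleotides were called in one direction. Of 21 such genes 12 were tested, 9 fell, 0 rose and 3 were not called, with a median log2 fold change of -0.99. Thus 75.0% were lower and 0% higher, against 25.8% and 25.9% of all tested genes, and these shares were not tested. At an adjusted p under 0.05 without the fold threshold, Pde7a was lower as well.

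All 8 genes of the cAMP-selective families were tested and 6 (75.0%) fell, against 25.8% of all tested genes. Pde4a (chromosome 9, 21165714 to 21213248, plus strand) had 31.9, 26.3 and 21.3 CPM in unstimulated and 3.20, 2.73 and 2.53 CPM in CL097 libraries. It fell 9.32-fold (log2 fold change -3.22, SE 0.15, adjusted p = 2.88e-06) with no overlap. Pde4b (chromosome 4, 102087543 to 102607259, plus strand), the most abundant member of the family that roflumilast inhibits, had 532, 504 and 482 CPM in unstimulated and 185, 203 and 199 CPM in CL097 libraries. Values within each condition stayed close together, and Pde4b fell 2.59-fold (log2 fold change -1.37, SE 0.07, adjusted p = 4.31e-06).

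The other genes of that family fell less. Pde4c went from 5.60 ± 1.69 to 3.28 ± 0.64 CPM (log2 fold change -0.75, SE 0.19, adjusted p = 0.0110). Pde4d went from 45.7 ± 12.4 to 29.4 ± 2.42 CPM (log2 fold change -0.61, SE 0.16, adjusted p = 0.0127), with a pair difference of -1.12 in number 1 and of -0.39 and -0.31 in numbers 2 and 3. Without pair 1 the log2 fold change of Pde4d was -0.35, short of the fold threshold. The call of Pde4c was lost without pair 2 (-0.66, adjusted p = 0.101) and in a fit without pairs (adjusted p = 0.0579).

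The Pde7 and Pde8 families hydrolyse cAMP at low concentrations and are not blocked by rolipram. Pde8a (chromosome 7, 81213596 to 81334533, plus strand) had 47.4, 34.1 and 40.3 CPM in unstimulated and 22.1, 17.6 and 18.4 CPM in CL097 libraries. The groups did not overlap and Pde8a fell 2.09-fold (log2 fold change -1.06, SE 0.10, adjusted p = 6.23e-05). Pde7b fell from 9.69 ± 1.61 to 5.19 ± 1.34 CPM (log2 fold change -0.92, SE 0.16, adjusted p = 0.00176).

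Their paralogs were not called. Pde7a had 232, 239 and 219 CPM in unstimulated and 185, 214 and 205 CPM in CL097 libraries, lower in all 3 pairs with a gap between the groups smaller than the range within each. Its log2 fold change had a 95% confidence interval of -0.36 to -0.03 (adjusted p = 0.0394), so a fall beyond the fold threshold was outside the interval. Pde8b was low, at 1.90 ± 0.36 and 1.78 ± 0.86 CPM, and its log2 fold change of -0.22 had an interval from -1.23 to 0.79.

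Of 8 genes whose enzymes act on both cAMP and cGMP 3 were tested, and the 2 abundant ones fell. Pde2a (chromosome 7, 101421691 to 101512827, plus strand), an enzyme whose cAMP hydrolysis cGMP stimulates, had 272, 333 and 318 CPM in unstimulated and 33.4, 48.7 and 44.2 CPM in CL097 libraries. It fell 7.36-fold (log2 fold change -2.88, SE 0.07, adjusted p = 9.5e-07). Pde3b (chromosome 7, 114415281 to 114539251, plus strand), whose cAMP hydrolysis cGMP inhibits, had 470, 400 and 458 CPM in unstimulated and 139, 157 and 143 CPM in CL097 libraries. Both genes had no overlap between conditions, and Pde3b fell 3.03-fold (log2 fold change -1.60, SE 0.09, adjusted p = 6.1e-06). Pde1b, a calmodulin-dependent enzyme, was not called, at 7.70 ± 2.64 and 6.42 ± 0.27 CPM (log2 fold change -0.20, SE 0.22, adjusted p = 0.441).

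Pde5a (chromosome 3, 122728947 to 122859374, plus strand), the target of sildenafil, was the 1 cGMP-selective gene of 5 that was tested. It had 4.01, 4.55 and 4.76 CPM in unstimulated and 1.68, 1.78 and 1.54 CPM in CL097 libraries. The groups did not overlap, and Pde5a fell 2.67-fold (log2 fold change -1.42, SE 0.23, adjusted p = 0.00116).

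The 11 tested phosphodiesterases that hydrolyse cAMP summed to 200, 196 and 195 CPM per kilobase of exon in unstimulated and to 72.4, 81.9 and 78.2 in CL097 libraries. In unstimulated cells 3 genes led this pool at levels that did not differ beyond their spread: Pde2a at 50.0 ± 5.18, Pde3b at 48.6 ± 4.10 and Pde4b at 47.9 ± 2.33 CPM per kilobase (SD, n = 3). Pde7a followed at 29.7 ± 1.35 and Pde8a at 10.0 ± 1.65. After CL097 the order began with Pde7a at 26.0 ± 1.94, ahead of Pde4b at 18.5 ± 0.90 and Pde3b at 16.0 ± 1.05, and Pde2a stood at 6.85 ± 1.28.

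As shares of the pool, Pde7a went from 15.1 ± 0.66% to 33.5 ± 0.50% and Pde2a from 25.4 ± 2.89% to 8.79 ± 1.13%. Pde4b made up 24.3 ± 0.92% without and 23.9 ± 0.39% with CL097, since its fall was close to that of the whole pool. Pde3b went from 24.7 ± 1.95% to 20.7 ± 0.54%. Shares within a library do not depend on a common scaling factor. They rest on the annotated exon length of each gene and not on the isoforms expressed. Quantile normalization, and a shift per gene and library number described with the processing, can enter them as well.

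**Figure D2:**
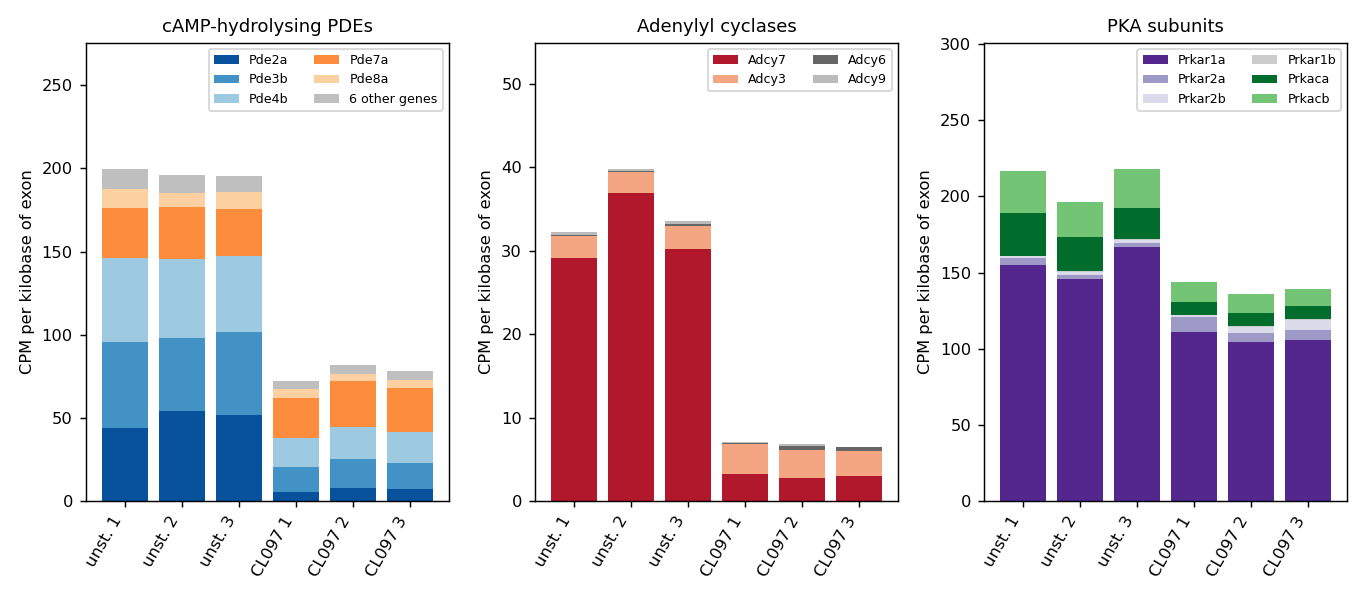
Stacked levels in CPM per kilobase of exon (vertical axes, from 0) in each of the 6 libraries for the tested phosphodiesterases that hydrolyse cAMP, the adenylyl cyclases and the PKA subunits. The phosphodiesterase pool goes from 195 to 200 in unstimulated libraries to 72.4 to 81.9 with CL097 and Pde7a becomes its largest part, the cyclase sum is mostly Adcy7 in unstimulated libraries only, and Prkar1a is the largest PKA part in every library.

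Of 5 Pde-named genes whose products do not hydrolyse cyclic nucleotides 3 were tested. Pde12, which encodes a mitochondrial enzyme that trims RNA, had 39.4, 33.6 and 43.7 CPM in unstimulated and 82.4, 66.9 and 62.6 CPM in CL097 libraries. The groups did not overlap and Pde12 rose 1.81-fold (log2 fold change 0.86, SE 0.12, adjusted p = 0.000556), and it overlaps Arf4 on the opposite strand. Pde6d, a carrier of prenylated proteins, had 21.1 ± 1.35 and 25.8 ± 2.56 CPM (log2 fold change 0.28, adjusted p = 0.0736). Pde4dip, a protein of the Golgi and centrosome that binds Pde4d, had 49.5, 62.2 and 60.3 CPM in unstimulated and 61.6, 41.5 and 40.2 CPM in CL097 libraries. Number 1 went the other way from numbers 2 and 3, and Pde4dip was not called (log2 fold change -0.29, SE 0.18, adjusted p = 0.192), but without pair 1 it was called lower at -0.59.

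The 4 regulatory subunits of PKA went in different directions. Prkar1a (chromosome 11, 109649405 to 109669656, plus strand), the main type I subunit, had 671, 631 and 720 CPM in unstimulated and 481, 451 and 457 CPM in CL097 libraries. The groups did not overlap, and Prkar1a fell 1.45-fold (log2 fold change -0.54, SE 0.06, adjusted p = 0.000205). This lay just past the fold threshold, and without pair 3 the value was -0.48. Prkar2a (chromosome 9, 108689314 to 108750436, plus strand), a type II subunit that AKAPs bind, had 26.3, 17.0 and 19.8 CPM in unstimulated and 60.2, 39.5 and 43.5 CPM in CL097 libraries. Every CL097 value was above every unstimulated value, and Prkar2a rose 2.27-fold (log2 fold change 1.18, SE 0.09, adjusted p = 2.59e-05).

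Prkar2b, the other type II subunit, had 5.02, 6.90 and 6.50 CPM in unstimulated and 4.30, 14.1 and 23.8 CPM in CL097 libraries. CL097 library 1 lay below all unstimulated libraries while the other CL097 libraries lay above them, and Prkar2b was not called (log2 fold change 0.89, SE 0.35, adjusted p = 0.0589). Without pair 1 it was called higher at 1.45. The summed erythroid markers had the same order over the CL097 libraries, at 48.3, 1170 and 2038 CPM. In unstimulated libraries they stood at 27.7, 805 and 937 CPM, another order than that of Prkar2b. Summed monocyte and macrophage, neutrophil, platelet and plasma cell markers also rose from CL097 library 1 to 3. The part of any of these markers in the levels of Prkar2b was not tested. Prkar1b was low, with 1.81 ± 1.29 and 1.20 ± 0.37 CPM (log2 fold change -0.41, SE 0.34, adjusted p = 0.317).

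Both catalytic subunit genes fell. Prkaca (chromosome 8, 83972993 to 83996443, plus strand) had 70.8, 55.3 and 50.5 CPM in unstimulated and 21.4, 21.5 and 20.6 CPM in CL097 libraries, a 2.75-fold fall (log2 fold change -1.46, SE 0.11, adjusted p = 2.68e-05). Prkacb (chromosome 3, 146729574 to 146812990, minus strand) had 240, 202 and 224 CPM in unstimulated and 111, 112 and 100 CPM in CL097 libraries, a 2.06-fold fall (log2 fold change -1.04, SE 0.08, adjusted p = 2.64e-05). Neither gene overlapped between conditions.

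Per kilobase of exon, Prkar1a stood first in both conditions among PKA subunits, at 156 ± 10.2 and 107 ± 3.68 CPM per kilobase. Prkacb at 25.3 ± 2.19 and Prkaca at 23.7 ± 4.25 did not differ beyond their spread in unstimulated cells, and after CL097 they stood at 12.3 ± 0.74 and 8.52 ± 0.20. Prkar2a went from 2.04 ± 0.45% to 6.28 ± 1.26% of the regulatory sum, and Prkar1a from 96.6 ± 0.17% to 90.2 ± 1.49%.

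Within libraries 5 ratios were compared with two-sided exact permutation tests, in which 3 against 3 libraries cannot give a p below 0.10. Each ratio separated the conditions completely and reached that smallest value (exact p = 0.1, 0.1 after adjustment over the 5 ratios). Any ratio without overlap between conditions gives this value. The library numbers were not used as pairs here, unlike in the gene fit. For Prkar1a to Prkar2a the separation followed from the gene values, since neither gene overlapped between conditions and their directions were opposite. On the log2 scale the ratio of Prkar1a to Prkar2a was lower with CL097 by a difference of -1.72, that of Prkaca to Prkacb by -0.42 and that of Pde4b to Pde4d by -0.77. The sum of regulatory over catalytic subunits was higher by 0.79, since the catalytic sum went from 49.0 ± 5.95 to 20.8 ± 0.94 CPM per kilobase and the regulatory sum from 161 ± 10.7 to 119 ± 3.83. The sum of cAMP-selective phosphodiesterases over that of cyclases was higher by 1.50.

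The sequences before one annotated start of Prkar1a and of Prkar2a, the regulatory subunit genes called in opposite directions, were read for the CREB site (CRE, TGACGTCA) and for its shorter form TGACG on either strand. A full CRE contains the shorter form. The RefSeq promoter windows of GRCm38.p6, 300 bases each, covered 32 of the 37 tested genes with 68 windows. Each sequence is printed 5′ to 3′ on the plus strand and ends at the base before the start, with matching letters in capitals.
Prkar1a, chr11:109650699-109650948: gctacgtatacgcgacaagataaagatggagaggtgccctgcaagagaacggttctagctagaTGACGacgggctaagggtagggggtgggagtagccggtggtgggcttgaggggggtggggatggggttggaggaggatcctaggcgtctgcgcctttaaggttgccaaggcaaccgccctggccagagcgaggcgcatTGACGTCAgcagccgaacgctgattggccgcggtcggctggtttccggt
Prkar2a, chr9:108691893-108692142: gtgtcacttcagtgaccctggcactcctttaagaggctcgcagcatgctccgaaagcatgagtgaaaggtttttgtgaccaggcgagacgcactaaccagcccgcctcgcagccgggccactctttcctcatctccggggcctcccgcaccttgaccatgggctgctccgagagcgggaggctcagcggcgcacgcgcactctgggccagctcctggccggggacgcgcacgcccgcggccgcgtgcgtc

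The Prkar1a sequence held a full CRE at position -49 and a short form at -187 from the start. The Prkar2a sequence held no complete match, although a short form spanned the start itself. A full CRE was in 2 of the 68 windows of tested genes, both of Prkar1a, which had 6 windows, and in 1.79% of all 32851 windows. The Prkar1a window printed was picked because it held the site. The shorter form was in 23.5% of the windows of tested genes and in 20.8% of all windows. Counted by gene, 43.8% of the tested genes with a window and 23.0% of all genes held it in at least 1 window, where genes with more windows have more chances. It was in 30.3% of windows of genes called lower, 20.0% of the 5 windows of genes called higher and 16.7% of windows of genes not called. Of the 10 windows of lower genes that held it 3 were of Prkar1a, and no test of these shares was made. A match of letters is a description and not a bound site, and gene-level values cannot tell which start was used.

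Of 16 anchoring protein genes 12 were tested: 1 rose, 3 fell and 8 were not called, with a median log2 fold change of -0.03. The 25.0% that fell was near the 25.8% of all tested genes that did. Only 8.33% rose, against 25.9% of all tested genes. Akap1 (chromosome 11, 88830792 to 88864586, minus strand), which ties PKA to the outer membrane of mitochondria, had 11.9, 9.20 and 8.60 CPM in unstimulated and 77.3, 62.9 and 62.6 CPM in CL097 libraries. It rose 6.85-fold, the largest rise among the 37 genes (log2 fold change 2.78, SE 0.10, adjusted p = 1.38e-06). Its share of the summed AKAP level per kilobase went from 2.08 ± 0.64% to 16.4 ± 2.85%.

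Akap12 (chromosome 10, 4266380 to 4359470, plus strand), a scaffold at the plasma membrane also called gravin, had 78.1, 159 and 134 CPM in unstimulated and 18.3, 51.0 and 41.2 CPM in CL097 libraries. Number 1 was lowest in both conditions, the groups did not overlap, and Akap12 fell 3.51-fold (log2 fold change -1.81, SE 0.10, adjusted p = 7.54e-06). Summed monocyte and macrophage markers were lowest in number 1 as well, at 139 CPM against 360 and 572 CPM in unstimulated libraries and 93.0 CPM against 189 and 321 CPM in CL097 libraries. Erythroid and neutrophil markers were lowest in number 1 as well, and the part of any of these in the level of Akap12 was not tested. The bead depletion, per the methods, was directed against CD11b, CD11c and Gr-1 among others. Within pairs Akap12 fell by 1.64 to 2.10 on the log2 scale, and most in pair 1.

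Akap13 (chromosome 7, 75455534 to 75754609, plus strand) led the AKAPs in unstimulated cells per kilobase of exon, at 31.7 ± 4.35 CPM per kilobase, and after CL097 stood at 16.1 ± 1.53, below Akap8 at 21.1 ± 1.09. It had 577, 758 and 653 CPM in unstimulated and 301, 359 and 353 CPM in CL097 libraries. It fell 1.96-fold with no overlap (log2 fold change -0.97, SE 0.06, adjusted p = 1.17e-05). Akap17b (chromosome X, 36608314 to 36645395, minus strand) had 9.89, 12.3 and 13.6 CPM in unstimulated and 3.36, 7.41 and 5.84 CPM in CL097 libraries, and fell 2.25-fold (log2 fold change -1.17, SE 0.19, adjusted p = 0.00142).

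The 8 AKAPs that were not called had log2 fold changes from -0.17 to 0.41. Among them were abundant genes with narrow intervals: Akap8, a nuclear anchoring protein, at 176 ± 23.6 and 183 ± 9.40 CPM (95% interval of the log2 fold change -0.14 to 0.27), and Akap11, which binds type I PKA, at 96.7 ± 5.19 and 105 ± 1.87 CPM (-0.05 to 0.29). Akap9, an AKAP of the centrosome and Golgi, had an interval of -0.34 to 0.01, Akap10, which binds both PKA types, one of -0.20 to 0.16, the Akap8 paralog Akap8l one of -0.25 to 0.17 and Akap2 one of -0.46 to 0.11. For these 6 genes a change beyond the fold threshold lay outside the interval. For the low genes Akap7 and Akap5, both membrane anchors, it did not (intervals -0.76 to 0.73 and -0.28 to 1.10). Akap9 overlaps Cyp51 on the opposite strand.

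**Figure D3:**
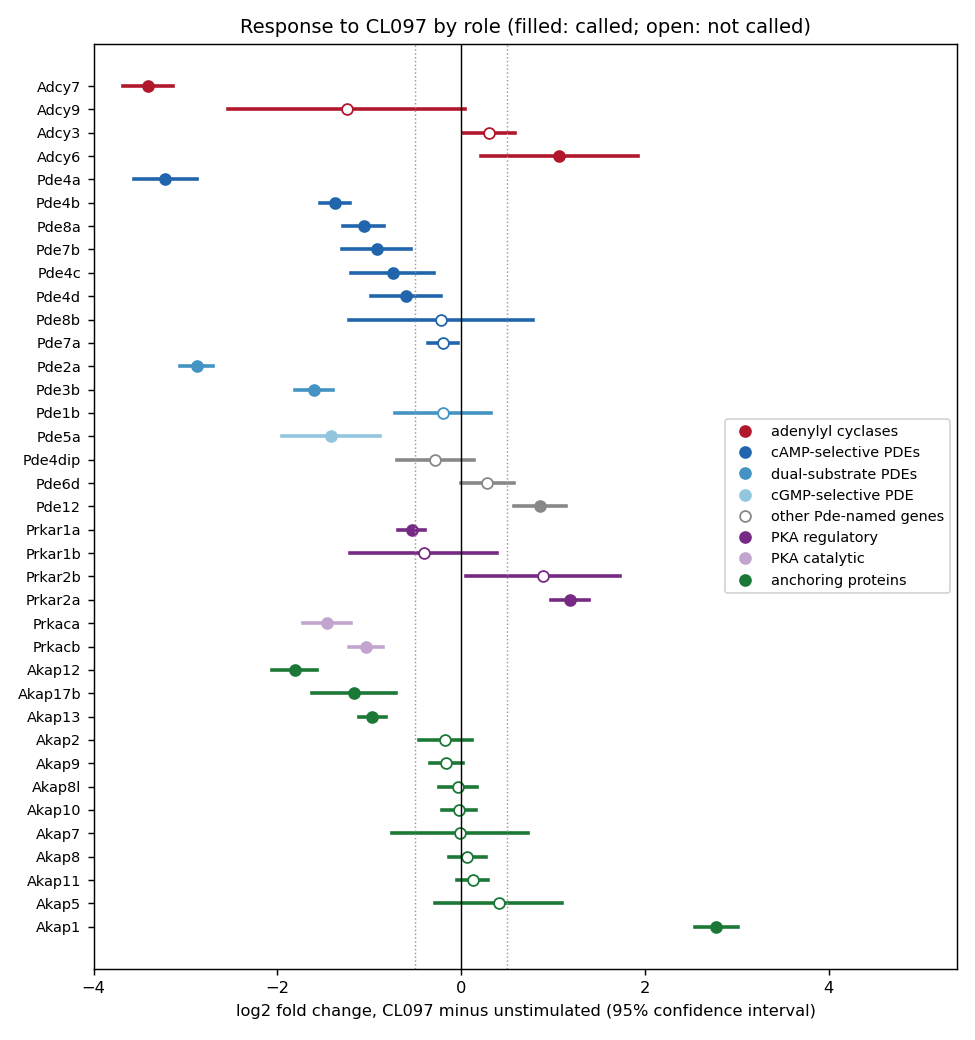
Log2 fold change (CL097 minus unstimulated, horizontal axis) of the 37 tested genes from the paired limma fit with 95% confidence intervals, coloured by role; filled points are called, open points are not, and dotted lines mark the threshold of 0.5 in each direction. The 12 phosphodiesterases of cyclic nucleotides and both catalytic subunits all have points below 0, while 8 of the 12 AKAPs are open, between -0.17 and 0.41.

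Other genes of the pathway, taken from lists of receptors, G proteins, PKA inhibitors, cAMP effectors, CREB factors and CREB targets, were read from the same fit. Of 61 such genes 41 were tested, of which 10 (24.4%) rose, 15 (36.6%) fell and 16 stayed uncalled, with a median log2 fold change of -0.30. Over all tested genes 25.9% were higher and 25.8% lower, so the share that rose was near that of all tested genes. The counts of the single lists below stand against the same shares, and no share was tested. Of 8 tested receptors that raise cAMP 4 rose and 3 fell. Among these, Gpr4 reached the minimum level in CL097 libraries only and Ptgir in unstimulated libraries only. Each passed the filter only through the condition where it was higher, so its direction adds no support to these counts. Ptger4, a receptor for prostaglandin E, rose from 31.2 ± 0.64 to 106 ± 7.31 CPM (log2 fold change 1.76, SE 0.08, adjusted p = 3.42e-06).

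The adenosine receptor gene Adora2a rose (log2 fold change 1.09, SE 0.12), as did Gpr65, a proton sensor (1.51, SE 0.11). Hrh2, a histamine receptor, and Ptgir, the prostacyclin receptor, were called lower at low levels, from 1.99 ± 0.57 to 0.299 ± 0.26 CPM and from 0.776 ± 0.12 to 0.262 ± 0.19 CPM. The call of Ptgir was lost without pair 1 (adjusted p = 0.0525) and without pair 3 (adjusted p = 0.140). Gpr4, another proton sensor, was called higher, with 0.0731, 0.0290 and 0.137 CPM in unstimulated and 1.21, 1.49 and 0.964 CPM in CL097 libraries, and no fold is given because the unstimulated values lay near the lowest values of the files.

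Downstream of the receptors, Gnas, which encodes the stimulatory G protein, had 917 ± 15.0 and 747 ± 10.1 CPM, and its log2 fold change of -0.30 stayed under the fold threshold (SE 0.05, adjusted p = 0.00205). Of 5 tested G protein alpha subunits 0 rose and 2 fell. Rapgef4, which encodes EPAC2, a cAMP sensor independent of PKA, fell from 158 ± 19.1 to 16.8 ± 4.30 CPM (log2 fold change -3.25, SE 0.10, adjusted p = 1.07e-06). The PKA inhibitor genes went in opposite directions: Pkig fell by 1.39 on the log2 scale (SE 0.08) and Pkib rose by 0.83 (SE 0.09).

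Of 11 CREB factors and coactivators 2 rose and 4 fell. Creb1 had 196 ± 14.1 and 179 ± 1.51 CPM (log2 fold change -0.13, adjusted p = 0.130), and Crem had 173 ± 41.9 and 121 ± 11.9 CPM (-0.49, adjusted p = 0.00182), just short of the fold threshold, and it was called lower without pair 2 (-0.58) or without pair 3 (-0.52). The coactivator Crtc2 rose from 126 ± 12.1 to 253 ± 11.8 CPM (log2 fold change 1.01, SE 0.07, adjusted p = 1.24e-05). Of 10 tested early CREB target genes 3 rose and 4 fell. Nr4a1 (log2 fold change 1.15), Nr4a3 (1.29) and the clock gene Per2 (1.77) rose. The paralog Nr4a2 (-1.82), the metabolic coactivator gene Ppargc1a (-1.21), Per1 (-0.57) and Rgs2 (-2.40), a regulator of G protein signaling, fell. The call of Ppargc1a was lost without pair 3 (-1.10, adjusted p = 0.0572).

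**Figure D4:**
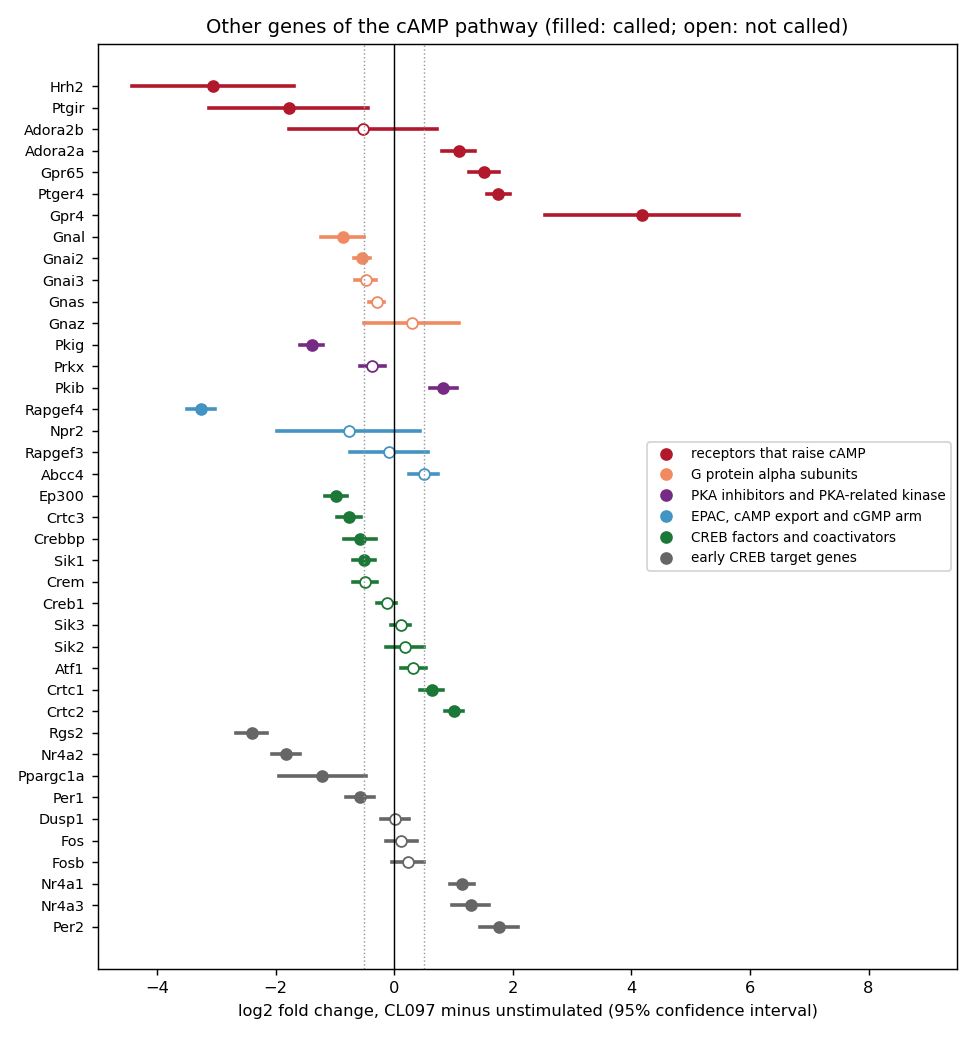
Log2 fold change (CL097 minus unstimulated, horizontal axis) with 95% confidence intervals for tested genes of the pathway lists, coloured by list; filled points are called, open points are not, and dotted lines mark 0.5 in each direction. Receptors and early CREB targets lie on both sides of 0, and the point of Gpr4, farthest to the right, is no measure of fold because its unstimulated values lay near the lowest of the files.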

How the data were processed

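RNA was sequenced from 3 unstimulated and 3 CL097 cultures. Per the submitters' processing notes and the study's methods, the authors used FastQC 0.11.7, Trim Galore 0.6.5, STAR 2.6.1a (mm10) and featureCounts from Subread 2.0.1, applied voom with quantile normalization, and then deposited the log2 CPM of 23420 symbols. Which gene annotation and strand setting the counting used is not given in the sources used here. The library kit was stranded, but without that setting reads of overlapping genes on opposite strands cannot be told apart. Depth is unknown, and no count test was run.

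The deposited log2 values were fitted in limma 3.58.1 (R 4.3.3) with group and replicate number as terms, moderated variances with a mean-variance trend, two-sided tests, and Benjamini-Hochberg adjustment over the 11844 genes with a log2 value of -1 or more in at least 3 libraries. A call needed an adjusted p under 0.05 and a log2 fold change beyond 0.5 in size, as in the study. No pseudocount was added. The gene fit was run on simulated data with fewer changed genes than here, as a check of the code and not of the results. CPM are 2 to the power of the deposited values, and levels per kilobase used the union of exons in GENCODE M21 (GRCm38, also called mm10), in which all 58 symbols were found. Promoter windows were RefSeq's; Akap12, Pde3b, Pde7a, Akap2 and Adcy6 had none.

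Numbers were taken to pair libraries because deviations from the group means correlated across genes by 0.568, 0.326 and 0.458 in the 3 same-numbered pairs, over a limit of 0.1. Unstimulated library 2 with CL097 library 3 (0.209) and unstimulated library 3 with CL097 library 2 (0.172) passed that limit too. The limit alone thus does not single out same-numbered libraries. Over 17935 non-constant genes, same-numbered libraries shared 2655 to 3108 identical values and other library pairs 347 to 404, so the files carry a shift per gene and number that the sources do not describe. It leaves paired differences as they were but enters levels and SDs. The effect of this shift on the correlations was not tested.

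The symbol rule reads Adcy and Pde as followed by a digit, which leaves out Adcyap1 and Adcyap1r1. The genes and lists were chosen with earlier results of these data known. Every tested gene of the rule was named. Values in each library were given for those called with an absolute log2 fold change of 1 or more and for the gene with the highest mean in each role, and after their values were seen also for Pde4dip, Pde7a and Prkar2b. Pathway genes were named when called at that size, with Gnas, Creb1 and Crem always; Per1 and Pkib were named after their values were seen, and 1 gene of these lists is not reported here. Alternatives were no replicate block, no filter, a stricter filter of 0, log2(CPM + 1), a common median, cyclic loess, no variance trend, a robust variance prior, unscaled sums and leaving out each pair.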

Additional observations from a re-analysis of the deposited data

How the results depend on the processing

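The counts of higher and lower genes, over all tested genes, the cyclic nucleotide genes and the pathway lists, stayed within 1.5 times their values under every alternative run, and the 5 ratios kept their direction. Of the 20 called cyclic nucleotide genes 16 kept direction and call under all 11 alternatives; Adcy6, Pde4c, Pde4d and Prkar1a did not. Without the replicate block 3 cyclic nucleotide genes were higher and 15 lower, against 4 and 16 in the paired fit, and 2837 of all genes were higher and 2799 lower; Adcy6 (adjusted p = 0.0839) and Pde4c (0.0579) lost their calls. Adcy6 and Pde4d also lost them without a filter or without the variance trend, and Ptgir, Hrh2 and Ppargc1a did without a filter. Leaving out each pair in turn, 3 to 5 were higher and 15 to 17 lower. The log2 fold changes that changed sign were all of genes not called. Leaving out each pair in turn, Akap7 ranged from -0.42 to 0.41, Akap8 from -0.050 to 0.13, Akap8l from -0.079 to 0.0085, Akap10 from -0.055 to 0.020, Pde1b from -0.49 to 0.027 and Pde8b from -0.69 to 0.38, and Akap7 stood at 0.012 both with log2(CPM + 1) and with cyclic loess. The cause was not tested. The 3 libraries per condition, unknown depth and relative values limit what low genes can show.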

Other observations

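The 21 genes of the symbol rule that were not tested stayed at or below 0.49 CPM in every library, the highest value being that of Pde6g in CL097 library 1. Adcy2, Akap4 and Pde1a had a single value in all 6 libraries. When genes were not filtered, Adcy10, the soluble adenylyl cyclase, and Pde6a, a catalytic subunit of the photoreceptor enzyme, were called higher by limma, with adjusted p = 0.0420 and 0.0388. Adcy10 had 0.0225, 0.0315 and 0.0387 CPM in unstimulated and 0.236, 0.167 and 0.128 CPM in CL097 libraries. Pde6a had 0.0316, 0.0279 and 0.0311 CPM in unstimulated and 0.331, 0.0925 and 0.225 CPM in CL097 libraries. Both sets of unstimulated values lay at or near the lowest values of the files.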
